A study of Mus musculus with 10 samples.

Results

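The genes described here are 4 suppressors of cytokine signalling (Cish, Socs1, Socs2 and Socs3) and 5 signal transducers and activators of transcription (Stat3, Stat4, Stat5a, Stat5b and Stat6). They were taken by name, 9 of the 54408 genes counted, and all 9 were among the 13081 genes that passed the filter on low counts. RNA was sequenced from P14 CD8 T cells, which carry 1 transgenic T cell receptor for the gp33 peptide, after they had entered B16-gp33 tumours, a mouse melanoma line made to express that peptide. NFAT5 KO cells (5 libraries) carried loxP-flanked Nfat5 alleles (NFAT5flox/flox) together with Cre recombinase driven by the Cd4 promoter (CD4-Cre+/-). The control cells, labelled WT (5 libraries), carried the same NFAT5flox/flox alleles without Cre (CD4-Cre-/-), so WT means undeleted and not unmodified. Cells of both genotypes had a C57BL/6 background, were activated in culture for 48 hours, were injected at 5000000 per tumour-bearing mouse and were sorted as CD8 T cells from subcutaneous tumours 7 days later. The labels give no age or sex and do not tie libraries to single mice. The p-values therefore describe variation among the 10 libraries, which may in part be technical.

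Cytokine receptors have no kinase of their own and rely on Janus kinases bound to their inner tails. These kinases phosphorylate a STAT protein on a tyrosine, and the STAT then pairs with another, enters the nucleus and switches on genes. SOCS genes are among those genes, and their proteins block the receptor or the kinase and bring in a ubiquitin ligase, which closes a feedback loop. In CD8 T cells IL-2, IL-7 and IL-15 act mainly through STAT5, IL-12 through STAT4, IL-6, IL-10 and IL-21 through STAT3, and IL-4 through STAT6. RNA was measured here, and neither STAT phosphorylation nor protein was.

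The libraries held 22444310 to 32001285 estimated counts. Nfat5, the targeted gene, stood at 15.0 ± 6.58 CPM (read counts scaled to a common library total) in NFAT5 KO libraries and at 15.4 ± 3.81 CPM in WT libraries (SD, n = 5 each), a log2 fold change of -0.04 with an adjusted p of 0.957. Reads from the deleted stretch and from the rest of Nfat5 are summed in this value, which is therefore no check of the genotype labels. Markers of CD8 T cells were high in every library, with a summed level over 7 genes of 8669 to 9246 CPM in NFAT5 KO libraries and 8063 to 9125 CPM in WT libraries. Library titles start with 678 (3 NFAT5 KO, 2 WT) or 679 (2 NFAT5 KO, 3 WT). What this prefix stands for is not given in the labels. In bulk RNA, fewer cells of a type and less RNA per cell cannot be told apart.

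NFAT5 KO libraries held more RNA of Cish, Socs1, Socs3 and Stat6 than WT libraries, by 1.38-fold to 1.85-fold. No SOCS or STAT gene was called lower. The 4 called genes are 4 of 9 members, against 9.01% of all tested genes called in either direction and 3.38% called higher (edgeR quasi-likelihood test, adjusted p below 0.05). The members were chosen with earlier results of these data known, so this comparison is a description and no test of the family. By family, 3 of 4 SOCS genes and 1 of 5 STAT genes were called. Of the 9 estimates 8 were above 0, and only that of Socs2 was below. The median log2 fold change of the 9 members was 0.46, beside 0.02 over all tested genes. The values of the 2 genotypes did not overlap for Cish, Socs3 and Stat5a, each higher in NFAT5 KO libraries, against 10.3% of all tested genes without overlap in either direction, 3.92% without overlap and higher, and 6.41% without overlap and lower. With 1 library left out, 1 to 5 members passed: 1 without WT 678_2, NFAT5 KO 678_6 or NFAT5 KO 679_6, 2 without WT 679_3, and 5 without WT 678_4. The DESeq2 Wald test and limma-voom each called 6 of 9 members, against 15.7% and 11.8% of the genes they tested. With the title prefix as a block 2 members passed, Cish and Socs3, and 976 genes of the whole table did. The mean log2 CPM of macrophage markers, NFAT5 KO minus WT, was -2.18 (exact permutation p = 0.0238, or 0.107 adjusted over 9 marker lists). With this mean as a covariate, itself correlated with genotype (r = -0.74), 0 members passed. That fit called 23 genes of the whole table, 0 of them higher, so the loss of calls was not particular to the members.

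**Figure D1:**
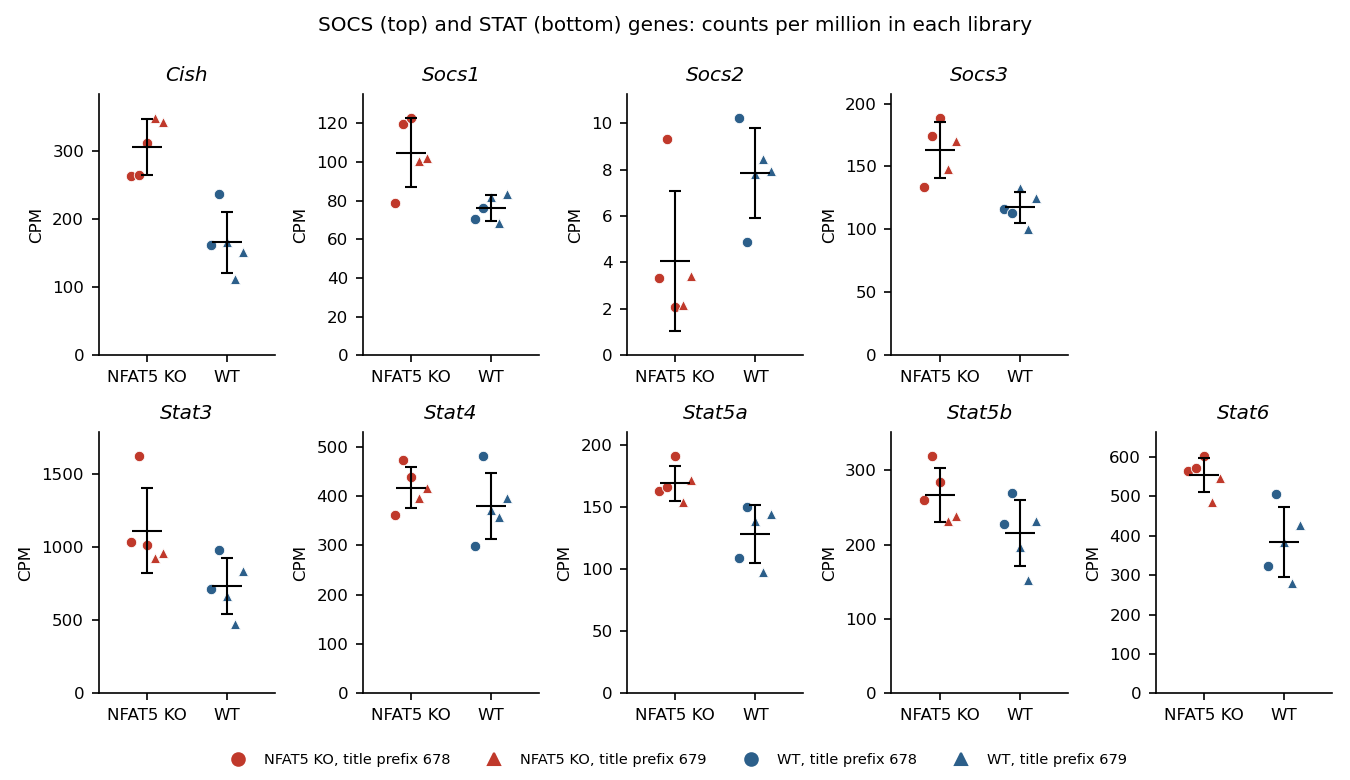
CPM of the 4 SOCS genes (top) and the 5 STAT genes (bottom) in each of the 10 libraries, NFAT5 KO in red and WT in blue, with circles for title prefix 678 and triangles for 679. Horizontal bars are means and vertical bars SD (n = 5 each), and each axis starts at 0. The red points of Cish, Socs3 and Stat5a lie above all blue points, and 4 of 5 red points of Socs2 lie below all blue points.

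Cish encodes CIS, the first SOCS protein found, which is induced by STAT5 and restrains signalling by IL-2 and by the T cell receptor. The gene lies at chr9:107296026-107302784 (GRCm38, plus strand). NFAT5 KO libraries had 263 CPM (678_3), 265 CPM (678_5), 312 CPM (678_6), 349.7 CPM (679_2) and 344 CPM (679_6), against 163 CPM (678_2), 237 CPM (678_4), 166 CPM (679_3), 113 CPM (679_4) and 152 CPM (679_5) in WT libraries. Values of the other members are given in this order of libraries. All NFAT5 KO libraries stood above all WT libraries, and the lowest WT library was 679_4. Cish rose by 0.88 on the log2 scale (SE 0.17, 95% interval 0.52 to 1.24, adjusted p = 0.00562), which is 1.85-fold, and it passed the threshold in 10 of 10 fits with 1 library left out. With the mean of macrophage markers as a covariate the estimate was 0.75 (adjusted p = 0.253). The difference was 0.48 within prefix 678 and 1.26 within prefix 679. The interaction of genotype with prefix had an unadjusted p of 0.0155 and an adjusted p of 0.9998, in a test that called 0 of 13081 genes and had 377 (2.88%) at an unadjusted p below 0.05.

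Socs1 encodes a protein that binds the Janus kinases directly and is known for limiting interferon-gamma and common gamma chain signals. It lies at chr16:10782240-10785536 (minus strand). NFAT5 KO libraries had 78.9, 119.8, 123, 100.3 and 102 CPM, against 70.3, 76.0, 82.0, 68.5 and 83.6 CPM in WT libraries. NFAT5 KO 678_3 lay inside the WT range and the other 4 NFAT5 KO libraries lay above it. Socs1 rose by 0.46 (SE 0.12, 95% interval 0.20 to 0.73, adjusted p = 0.0346). With 1 library left out it passed in 1 of 10 fits, the one without NFAT5 KO 678_3 (0.53, adjusted p = 0.00943), and the highest adjusted p was 0.0998, without NFAT5 KO 678_6. With the title prefix as a block the adjusted p was 0.0565, and with the macrophage marker mean as a covariate the estimate was 0.27 (adjusted p = 0.772).

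Socs3 encodes the SOCS protein that docks on gp130, the shared receptor chain of the IL-6 family, and so limits STAT3. The gene lies at chr11:117966079-117970047 (minus strand). NFAT5 KO libraries had 134, 174, 189, 148 and 170.5 CPM, against 116, 113, 133, 100.4 and 125 CPM in WT libraries. The groups did not overlap, but NFAT5 KO 678_3 and WT 679_3 came within 1 CPM of each other. Socs3 rose by 0.47 (SE 0.11, 95% interval 0.23 to 0.71, adjusted p = 0.0178). It passed in 7 of 10 fits with 1 library left out, and not without NFAT5 KO 678_6, WT 678_2 or NFAT5 KO 679_6 (adjusted p = 0.0582, 0.0521 and 0.0518). With the macrophage covariate the estimate was 0.41 (adjusted p = 0.458).

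Socs2 encodes a SOCS protein best known for limiting growth hormone signalling. Its position is chr10:95385362-95417180 (minus strand). Few reads came from it, at 3.34, 9.34, 2.06, 2.16 and 3.40 CPM in NFAT5 KO libraries, against 10.2, 4.87, 7.80, 8.46 and 7.93 CPM in WT libraries. NFAT5 KO 678_5 lay inside the WT range and the other 4 NFAT5 KO libraries lay below every WT library. The log2 fold change of -0.95 (SE 0.41, 95% interval -1.84 to -0.06, adjusted p = 0.183) did not pass. Without NFAT5 KO 678_5 it was -1.53 (adjusted p = 0.00959), and limma-voom with quality weights gave -1.36 (adjusted p = 0.0167).

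**Figure D2:**
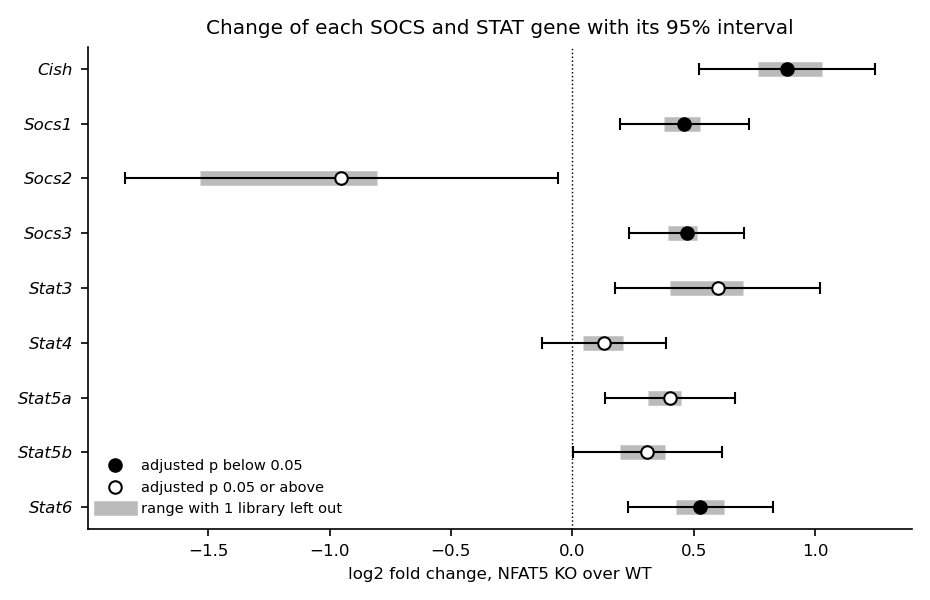
Log2 fold change of each member, NFAT5 KO over WT (edgeR), with its 95% interval as a line, filled where the adjusted p was below 0.05. Grey bars span the estimates with each of the 10 libraries left out in turn, and no grey bar reaches 0. Cish has the largest positive estimate (0.88), but its interval and those of Socs1, Socs3, Stat3, Stat5a and Stat6 all overlap one another.

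STAT proteins bind DNA at a short palindrome known as the GAS element, and the letters TTCNNNGAA were looked for in RefSeq promoter windows of GRCm38.p6 from 250 bases before to 50 bases after each gene start. The palindrome reads the same on both strands. Windows were found for 8 of the 9 members (11 windows, none for Socs2), and 2 of the 11 held the letters, against 8.30% of 32851 windows of the same length. The windows were those of Cish, with 2 matches, and Socs3, with 1, and 0.457% of all windows held 2 or more. Both genes were called higher. Socs1 and Stat6, also called higher, had no match in their windows. In Cish the matches start at bases 1 and 12 of the RefSeq transcript, whose start lies 633 bases inside the longer first exon of the GENCODE model. In Socs3 the match starts 154 bases before the RefSeq start. The letters TGGAAA, the core bound by NFAT proteins, are also in both Cish matches taken with the base that follows, and another match lies in a window of Stat5b, which was not called. Thus 2 of the 11 windows held TGGAAA on either strand, against 21.4% of all windows. The first 2 lines below give both sites with their flanks and the third gives the 250 bases before the Socs3 start, with TTCNNNGAA in capitals. A match of letters is not evidence that a protein was bound.
Cish, chr9:107296654-107296683, plus strand: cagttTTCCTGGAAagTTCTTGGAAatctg
Socs3, chr11:117969502-117969530, minus strand: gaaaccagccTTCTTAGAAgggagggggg
Socs3 upstream, chr11:117969367-117969616, minus strand: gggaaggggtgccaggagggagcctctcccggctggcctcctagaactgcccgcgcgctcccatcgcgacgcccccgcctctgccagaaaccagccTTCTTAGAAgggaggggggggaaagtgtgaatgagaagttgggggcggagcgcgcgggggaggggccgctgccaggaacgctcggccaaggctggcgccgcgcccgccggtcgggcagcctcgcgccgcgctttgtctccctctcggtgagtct

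Stat6 encodes the STAT that carries the IL-4 and IL-13 signal. Its position is chr10:127642986-127660957 (plus strand). NFAT5 KO libraries had 563.5, 573, 603, 484.5 and 547 CPM, against 324, 506, 385, 280.3 and 428 CPM in WT libraries. NFAT5 KO 679_2 stood below WT 678_4 and the other 4 NFAT5 KO libraries stood above all WT libraries. Stat6 rose by 0.53 (SE 0.14, 95% interval 0.23 to 0.83, adjusted p = 0.0328), or 1.44-fold, the one call among the 5 STAT genes. It passed in 4 of 10 fits with 1 library left out, those without WT 678_4, WT 679_4, WT 679_5 or NFAT5 KO 679_2, and the highest adjusted p was 0.0896, without WT 678_2. With the title prefix as a block the estimate was 0.49 (adjusted p = 0.0530), and with the macrophage covariate 0.41 (adjusted p = 0.595).

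Stat3 encodes the STAT of the IL-6, IL-10 and IL-21 receptors. The gene lies at chr11:100885098-100939540 (minus strand). NFAT5 KO libraries had 1037, 1628, 1013, 927 and 959 CPM, against 712, 982, 666, 475 and 841 CPM in WT libraries. NFAT5 KO 678_5 stood far above the rest, and 2 NFAT5 KO libraries lay below WT 678_4. The log2 fold change of 0.60 (SE 0.19, 95% interval 0.18 to 1.02) was larger than that of Stat6 but did not pass (adjusted p = 0.0765). The DESeq2 Wald test gave 0.60 with an adjusted p of 0.0196, edgeR passed it only without WT 678_4 (0.70, adjusted p = 0.0407), and without NFAT5 KO 678_5 edgeR gave 0.40 (adjusted p = 0.167). With the macrophage marker mean as a covariate the estimate was 0.26 (adjusted p = 0.875).

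Stat5a and Stat5b encode the close relatives that carry the IL-2, IL-7 and IL-15 signal. Stat5a lies at chr11:100859351-100885169 (plus strand) and Stat5b at chr11:100780731-100850724 (minus strand), 8626 bases apart, with Stat3 overlapping the end of Stat5a by 72 bases on the other strand. Whether the counting used strand is not given in the sources used here, and Salmon divides reads shared by the 2 STAT5 genes with a model. Stat5a had 163, 166, 191, 154 and 171 CPM in NFAT5 KO libraries, against 109, 150.1, 139, 97.6 and 144 CPM in WT libraries. The groups did not overlap. The log2 fold change was 0.40 (SE 0.12, 95% interval 0.14 to 0.67, adjusted p = 0.0613). It did not pass in edgeR, while a stricter filter on low counts, DESeq2 and limma-voom gave adjusted p-values of 0.0434, 0.0235 and 0.0390, and edgeR without WT 678_4 gave 0.0457. Stat5b had 260.2, 319.8, 285, 231 and 239 CPM in NFAT5 KO libraries, against 228, 270.1, 197, 152 and 232 CPM in WT libraries. These ranges overlapped, and the log2 fold change of 0.31 (SE 0.14, adjusted p = 0.214) did not pass and was 0.058 (adjusted p = 0.968) with the macrophage covariate.

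Stat4 encodes the STAT of the IL-12 receptor, which drives interferon-gamma production. It lies at chr1:51987148-52107189 (plus strand). NFAT5 KO libraries had 362, 472, 439, 396 and 415 CPM, against 297.5, 481, 371, 357 and 395 CPM in WT libraries. The highest value of all 10 was that of a WT library, 678_4. The estimate was 0.13 (SE 0.12, adjusted p = 0.549). Its 95% interval, -0.12 to 0.39, leaves out changes as large as the estimates of Cish, Socs1, Socs3 and Stat6. That interval overlaps those of Socs1, Socs3 and Stat6, and differences between genes were not tested.

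Salmon also estimates each annotated transcript of a gene, and transcript shares were described without a test. Of the 23 member transcripts with a mean share of 5% to 95%, only Stat5a-203 had shares that did not overlap between the genotypes, against 1.38% of 27966 such transcripts of all genes. Stat5a-203 made up 5.03, 5.10, 8.24, 5.30 and 6.75% of Stat5a in NFAT5 KO libraries, against 17.0, 13.1, 14.3, 14.3 and 11.3% in WT libraries. Its share was thus lower in every NFAT5 KO library than in any WT library. Its level overlapped between the genotypes, with NFAT5 KO 678_6 (6.64 TPM) above WT 679_4 (5.55 TPM) and WT 679_5 (6.41 TPM). The level averaged 4.49 ± 1.40 TPM (Salmon's abundance scaled by length and library total) in NFAT5 KO libraries and 7.41 ± 1.41 TPM in WT libraries, and it rested on 232 to 458 estimated reads in NFAT5 KO libraries and 442 to 772 in WT libraries. Stat5a-202, the main transcript, averaged 49.3 ± 3.72 TPM in NFAT5 KO libraries and 33.6 ± 7.16 TPM in WT libraries (SD, n = 5 each).

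Both transcripts code for protein, and they differ by 133 bases in GENCODE M21. Stat5a-202 begins with an 80-base untranslated exon that Stat5a-203 lacks, and it holds a 52-base coding exon at chr11:100881738-100881789 that Stat5a-203 skips. Of the 3 Stat5a transcripts that span this exon, 2 contain it. It encodes the stretch around the tyrosine that is phosphorylated when STAT5A is activated. Its length is 1 base over a whole number of codons, so the reading frame after it differs, and the coding sequence runs on for 265 bases in Stat5a-202 and 329 bases in Stat5a-203. The lines below give the exon in capitals within Stat5a-202, with 20 flanking bases on each side, and the same flanks joined in Stat5a-203 (plus strand, GENCODE M21 transcripts, GRCm38).
Stat5a-202: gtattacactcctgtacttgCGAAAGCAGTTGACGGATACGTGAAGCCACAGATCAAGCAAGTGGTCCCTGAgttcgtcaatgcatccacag
Stat5a-203: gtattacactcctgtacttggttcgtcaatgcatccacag
Reads over this junction were not counted here, and the share is what the Salmon model assigned from all reads of the gene.

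**Figure D3:**
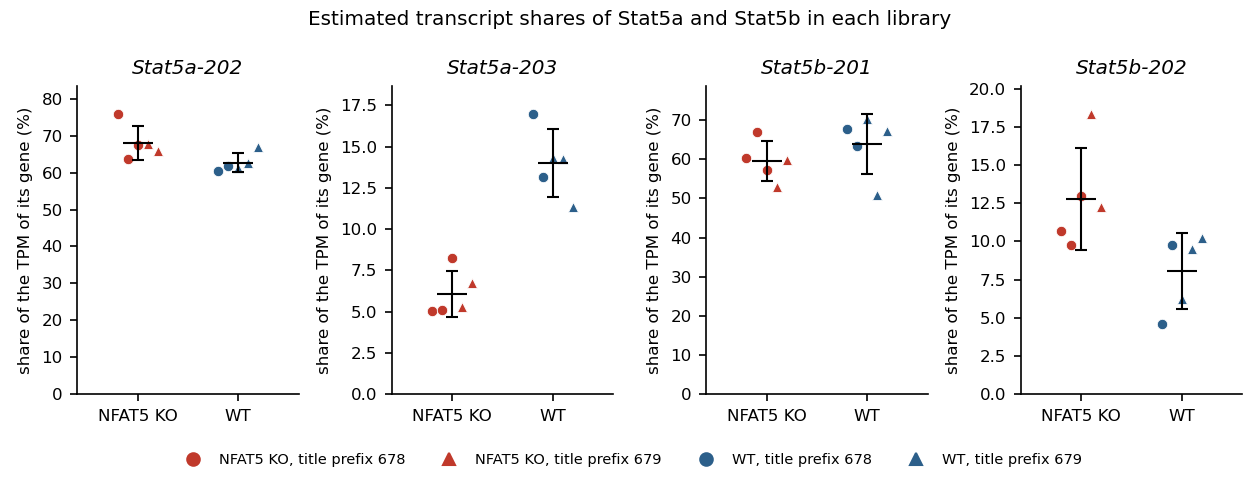
Share of the summed TPM of Stat5a or Stat5b held by 4 of their transcripts, in percent, in each library (symbols as in the CPM plot of the members, bars mean and SD, n = 5 each). Stat5a-203 lies at 5.03 to 8.24% in NFAT5 KO libraries and at 11.3 to 17.0% in WT libraries, while the points of the other 3 transcripts overlap between genotypes.

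The shares of the other member transcripts overlapped between the genotypes. Cish-201, which encodes full-length CIS, held 69.7 ± 6.62% of Cish in NFAT5 KO libraries and 69.8 ± 4.97% in WT libraries. Stat5b-202 held 12.8 ± 3.35% of Stat5b in NFAT5 KO libraries and 8.06 ± 2.51% in WT libraries, with ranges that overlapped. Over the 10 libraries, coding transcripts held 67.5 to 76.2% of the TPM of Stat3 and 60.5 to 77.5% of that of Stat5b. These are not shares of reads, because TPM is scaled by length. In WT 678_4 the 727-base noncoding Stat5b-203 held 26.9% of Stat5b on 281 estimated reads, and the 5213-base Stat5b-202 9.76% on 1065. In that library the 396-base noncoding Stat3-213 held 14.2% of Stat3 on 359 estimated reads, and the 4516-base Stat3-203 21.3% on 11516. The 14 transcripts of Socs2 varied widely between libraries, and those that code for protein together held 54.8 to 99.8% of the gene.

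Levels can be compared between genes in TPM. In NFAT5 KO libraries Stat3 was highest at 511 ± 129 TPM, and Stat6 (180.5 ± 19.0), Stat4 (164 ± 20.3), Cish (124 ± 19.1), Socs3 (95.6 ± 16.9), Stat5b (86.2 ± 13.0), Stat5a (72.9 ± 9.01), Socs1 (50.7 ± 10.8) and Socs2 (7.20 ± 7.98) followed. In WT libraries Stat3 was again highest at 334 ± 87.6 TPM, before Stat4 (149 ± 28.6), Stat6 (126 ± 30.1), Stat5b (69.2 ± 12.3), Cish (67.4 ± 19.9), Socs3 (67.0 ± 9.38), Stat5a (53.6 ± 11.1), Socs1 (36.3 ± 4.11) and Socs2 (13.2 ± 2.92) (mean ± SD, n = 5 each). The ranges of mean ± SD overlapped between Stat4 and Stat6 in both genotypes, but both genes were measured in the same libraries. Stat6 stood above Stat4 in every NFAT5 KO library and below Stat4 in every WT library, without a test. In WT libraries the ranges of mean ± SD of Stat5b, Cish and Socs3 overlapped as well. In NFAT5 KO libraries the range of Cish lay above that of Stat5b. The Stat5b sum includes the 727-base noncoding Stat5b-203, at 23.7 ± 2.67 TPM in NFAT5 KO libraries and 19.1 ± 3.71 TPM in WT libraries. The place of Stat5b before Cish and Socs3 in WT libraries depends on it.

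Members also varied among libraries of 1 genotype. WT 679_4 was the lowest of all 10 libraries for 7 of 9 members (Cish, Socs1, Socs3, Stat3, Stat5a, Stat5b and Stat6). NFAT5 KO 678_6 was the highest for 4 (Socs1, Socs3, Stat5a and Stat6) and the lowest for Socs2. Within NFAT5 KO libraries the SD of log2 CPM ran from 0.116 for Stat5a and 0.118 for Stat6 to 0.862 for Socs2, beside a median of 0.317 over all tested genes. In WT libraries it ran from 0.128 for Socs1 to 0.395 for Stat3, beside a median of 0.310. After the genotype means were taken out, the genes most like Cish over the 10 libraries, of 8495 compared, included Senp3 (Pearson r = 0.960) and Ptprc (0.924). Those most like Stat6 were Tnip3 (0.972), Snd1 (0.940) and Stat5a (0.937). These libraries share their scaling and depth, and the values are descriptions.

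Both title prefixes gave the same direction for all 9 members. Stat6 differed by 0.48 within prefix 678 and 0.50 within 679, Socs3 by 0.53 and 0.41, Socs1 by 0.55 and 0.37, Stat3 by 0.53 and 0.51, and Stat5a by 0.42 and 0.35 (log2 fold changes). Within prefix 679 alone 1 member passed, Cish (adjusted p = 0.0162), against 2.33% of 13966 genes tested. Within prefix 678 alone edgeR called 0 genes of 13747, members included, with 1449 genes at an unadjusted p below 0.05. With the prefix as a block Cish and Socs3 remained past the threshold, and Socs1 (adjusted p = 0.0565) and Stat6 (0.0530) did not.

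Markers of some other cells also differed between the genotypes. The mean log2 CPM of 12 macrophage genes was -0.78 ± 1.35 in NFAT5 KO libraries and 1.40 ± 0.77 in WT libraries (two-sided exact permutation test over all arrangements of the genotype labels, p = 0.0238, 9 lists tested). Their summed level was 21.8 to 71.9 CPM in NFAT5 KO libraries and 55.9 to 146.5 CPM in WT libraries, and none of the 12 was at 0 in all libraries. Of the 9 tested, 1 was called lower, Adgre1, the F4/80 antigen, at 0.147 ± 0.201 CPM in NFAT5 KO and 2.26 ± 1.35 CPM in WT libraries. With the macrophage mean as a covariate, itself correlated with genotype (r = -0.74), 0 of 9 members and 0.176% of all tested genes were called. Of those 23 genes 0 were higher in NFAT5 KO libraries. The mean of 6 B cell genes was -0.70 ± 0.06 in NFAT5 KO libraries and -0.03 ± 0.25 in WT libraries (exact permutation p = 0.00794, the smallest that 5 against 5 libraries allow). Their summed level, 232 to 294 CPM in NFAT5 KO libraries and 279 to 654 CPM in WT libraries, was mostly Ighm (257 ± 24.0 CPM in NFAT5 KO and 419 ± 141 CPM in WT libraries), which was called lower, while Pax5 was at 0 and Cd79a was under 1 CPM in every library. Adjusted over the 9 lists, the p-values were 0.107 for macrophages and 0.0714 for B cells, so neither passed. The part of these cells in the differences of the members was not tested beyond the covariate.

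**Figure D4:**
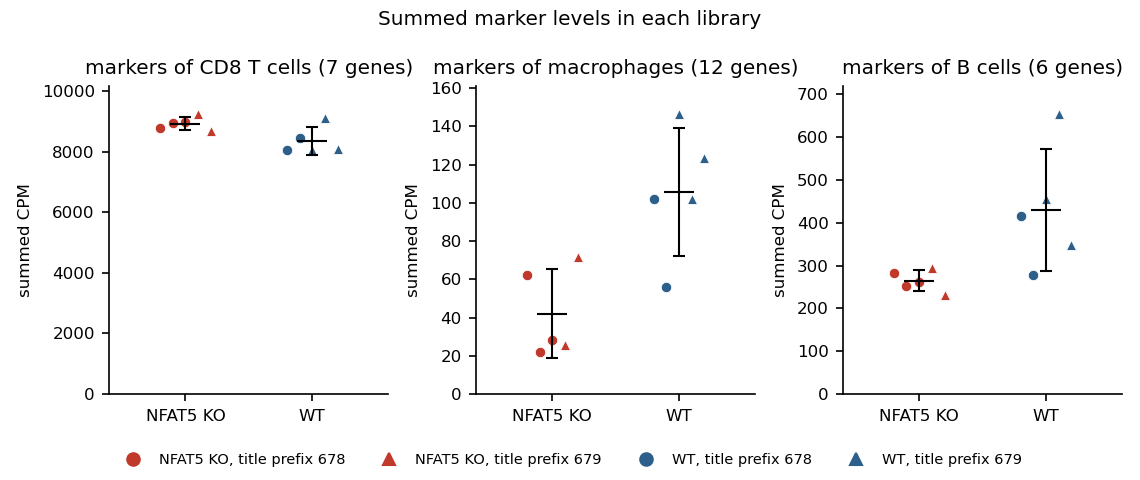
Summed CPM of markers of CD8 T cells, macrophages and B cells in each library, NFAT5 KO left and WT right, with the mean and SD (n = 5 each) and axes from 0. Macrophage markers reach 71.9 CPM in NFAT5 KO libraries and 146.5 CPM in WT libraries, against 8063 CPM or more for CD8 T cell markers.

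Of the remaining marker lists, melanoma genes summed to 0.916 to 3.79 CPM in NFAT5 KO libraries and 1.19 to 4.27 CPM in WT libraries, with Sox10 at 0 throughout. Lists for dendritic cells, neutrophils, NK cells, CD4 and regulatory T cells, and fibroblasts and endothelium gave exact permutation p-values of 0.532, 0.571, 0.246, 0.937 and 0.0794. Among CD8 T cell genes Trac, the constant part of the T cell receptor alpha chain, was called higher, at 1488 ± 233 CPM in NFAT5 KO libraries and 1053 ± 78.0 CPM in WT libraries, and the mean of the list differed by 0.09 (exact permutation p = 0.0476, adjusted over the 9 lists 0.143).

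Around the members, 10 lists of other pathway genes held 72 genes, of which 66 were tested. Of these 14 were called higher and 0 lower, beside 3.38% higher and 5.63% lower over all tested genes, and the median log2 fold change was 0.10. The lists were chosen with earlier results of these data known, so the count is a description and no test of the pathway. With 1 library left out the count was 8 to 15. It was 8 without WT 678_2 or WT 679_3, and 9 without NFAT5 KO 678_6, 679_2 or 679_6 or without WT 679_4. Of the 14 genes, 8 passed in all 10 of these fits (Jak2, Il2rg, Il7r, Il21r, Ifngr1, Ptprc, Tbx21 and Bcl3), and the other 6 (Jak1, Ifnar1, Il12rb2, Sh2b3, Myc and Furin) passed in 1 to 5, with a highest adjusted p of 0.111. With the macrophage mean as a covariate 0 of the 14 passed, and all 14 estimates were above 0. That fit called 0 genes of the whole table higher. None of 6 other SOCS and STAT genes passed, with estimates of 0.05 to 0.35.

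Receptor genes held 6 of the 14 calls. Among 7 tested genes of the common gamma chain family 3 rose, against 3.38% of all tested genes called higher. Il2rg, the chain shared by the IL-2, IL-4, IL-7, IL-9, IL-15 and IL-21 receptors, averaged 1864 ± 112 CPM in NFAT5 KO libraries and 1314 ± 184 CPM in WT libraries (log2 fold change 0.50, SE 0.09, adjusted p = 0.00458). Il7r, the receptor chain for the survival cytokine IL-7, had 42.7, 83.1, 52.8, 62.1 and 55.0 CPM in NFAT5 KO libraries and 25.2, 41.1, 17.2, 20.8 and 23.9 CPM in WT libraries, without overlap (1.21, SE 0.23, adjusted p = 0.00683). Il21r, whose signal goes mainly to STAT3, averaged 382 ± 66.5 CPM in NFAT5 KO libraries and 247 ± 37.1 CPM in WT libraries (0.63, adjusted p = 0.0100).

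The list of receptors for STAT4 or interferon signals also held 3 calls among 6 tested genes, all higher, against 3.38% of all tested genes called higher. Ifngr1, the ligand-binding chain of the interferon-gamma receptor, averaged 895 ± 227 CPM in NFAT5 KO libraries and 466.1 ± 91.1 CPM in WT libraries, without overlap (0.94, SE 0.17, adjusted p = 0.00391). Ifnar1, a chain of the type I interferon receptor, averaged 196 ± 16.0 CPM in NFAT5 KO libraries and 157 ± 13.3 CPM in WT libraries (0.32, adjusted p = 0.0371). Il12rb2, the chain of the IL-12 receptor that recruits STAT4, averaged 359 ± 84.1 CPM in NFAT5 KO libraries and 187 ± 84.2 CPM in WT libraries (0.94, SE 0.26, adjusted p = 0.0410). Of the receptors for STAT3 signals outside the common gamma chain family, which holds Il21r, none of 5 tested genes passed, with a median of 0.09.

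Of the 4 Janus kinases 2 rose, against 3.38% of all tested genes called higher. Jak2, used by the interferon-gamma and IL-12 receptors, had 144, 178, 172, 156 and 162 CPM in NFAT5 KO libraries and 89.8, 113, 108, 67.5 and 107 CPM in WT libraries, without overlap (0.74, SE 0.13, adjusted p = 0.00385). Jak1, used by most of these receptors, averaged 1273 ± 163 CPM in NFAT5 KO libraries and 942 ± 139.5 CPM in WT libraries (0.43, SE 0.12, adjusted p = 0.0343). Jak3, the partner of the common gamma chain (0.07, SE 0.14, adjusted p = 0.818), and Tyk2, used by the IL-12 and type I interferon receptors (0.05, SE 0.13, adjusted p = 0.879), did not pass. The signs of both changed with the method or with 1 library left out.

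Brakes other than SOCS genes gave 2 calls among 11, both higher, against 3.38% of all tested genes called higher, and the median of the list was -0.00. Ptprc, the phosphatase CD45, averaged 2456 ± 287 CPM in NFAT5 KO libraries and 1716 ± 223 CPM in WT libraries (0.52, adjusted p = 0.00874), and Sh2b3, the adaptor LNK, averaged 45.7 ± 8.48 CPM in NFAT5 KO libraries and 28.1 ± 6.97 CPM in WT libraries (0.70, adjusted p = 0.0323). CD45 also acts on T cell receptor signalling. None of 6 subunits of the ubiquitin ligase that SOCS proteins recruit passed, with estimates of -0.26 to 0.08.

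Known target genes of these STATs other than SOCS genes are read against 3.38% of all tested genes called higher. Of 11 STAT5 targets 1 rose, Myc, a growth regulator with many other inputs (357 ± 70.7 CPM in NFAT5 KO and 229.8 ± 52.2 CPM in WT libraries, 0.64, adjusted p = 0.0312), and the median of the list was 0.06. Of 5 STAT4 targets 2 rose, Tbx21, which encodes T-bet (0.56, adjusted p = 0.00735), and Furin, a protease gene (1.20, SE 0.32, adjusted p = 0.0346), with a median of 0.03. Of 5 tested STAT3 targets 1 rose, Bcl3, a partner of NF-kB (0.85, SE 0.19, adjusted p = 0.0134), with a median of 0.15.

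**Figure D5:**
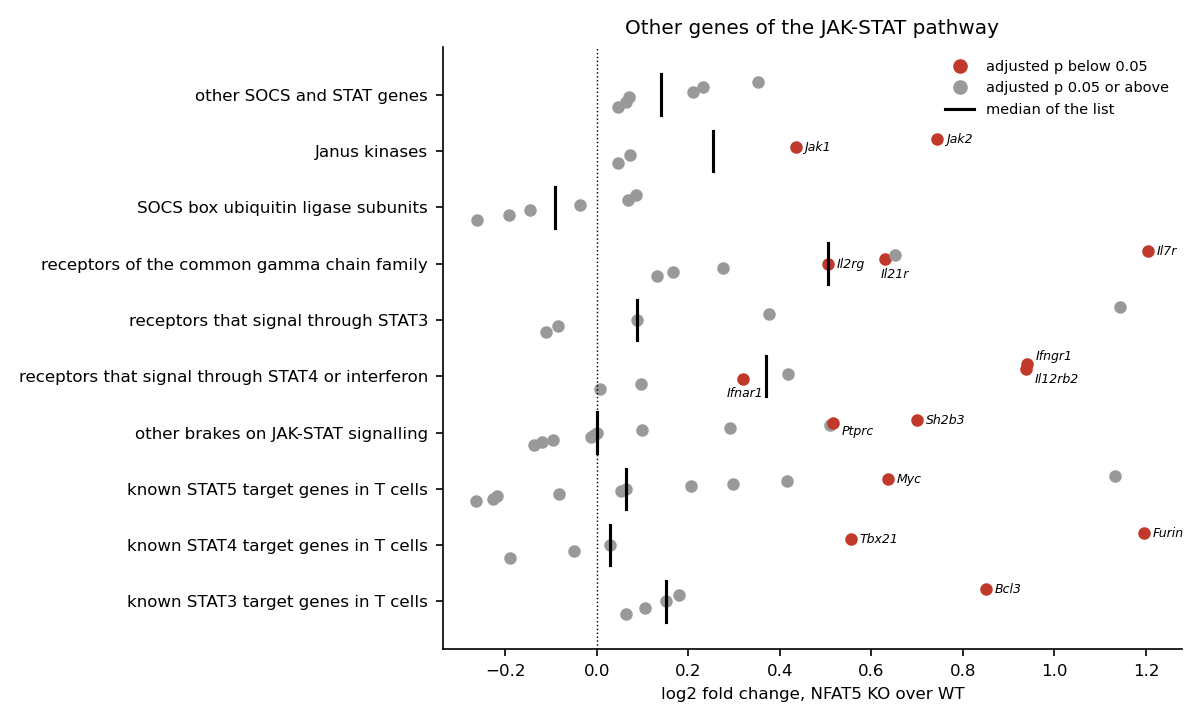
Log2 fold change, NFAT5 KO over WT, of the 66 tested pathway genes in their 10 lists, red and named where the edgeR adjusted p was below 0.05, with a vertical bar at each list's median. All 14 red points lie to the right of 0, and the medians run from -0.09 for the ubiquitin ligase subunits to 0.50 for the common gamma chain family.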

How the data were processed

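The authors deposited 1 Salmon table per library that gives an estimated count and a TPM value per transcript (140919 transcripts), per the file headers. Salmon 0.14.1, with mm10 and GRCm38.p6 as builds, is named in the submitters' processing notes. The deposited expected counts are not normalized, and deposited TPM values are scaled by effective length and library total. Annotation, strandedness and trimming: not given in the sources used here. Transcripts were matched to GENCODE M21 by identifier (99.38%, the rest holding 0.191% to 0.228% of a library's counts), and counts were summed per gene and rounded.

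NFAT5 KO was compared with WT over all 10 libraries with the edgeR 4.0.16 quasi-likelihood test in R 4.3.3 (robust, TMM, filterByExpr, no covariate, Benjamini-Hochberg over 13081 genes, threshold 0.05). SE is the absolute log2 fold change over the root of F. CPM are TMM-scaled, with a prior count of 2 on the log2 scale. The common biological coefficient of variation was 35.65%. TPM were summed per gene to compare genes and set transcript shares. Every pair of libraries differed by more than sampling noise. Members and lists were chosen with earlier results of these data known. Named genes are the 9 members, Nfat5, the Janus kinases, up to 4 called genes of each list, and the 3 genes most like the SOCS and the STAT gene of smallest p (mean log2 CPM at least 3). Some genes that the rules or lists took are not reported here, and counts and sums include them. Alternatives were other scalings and filters, a length offset, the title prefix, marker covariates, DESeq2 1.42.0, limma-voom (limma 3.58.1) and leaving out each library. On data simulated for NFAT5 KO against WT with 12695 genes, edgeR called 12 of 100 changes of log2 0.5, 60 of 100 of log2 1 and 4 of 12495 unchanged genes.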

Additional observations from a re-analysis of the deposited data

Results flagged for a closer look

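In groups of 5 libraries, a value was taken as standing apart where its gap to the nearest other value exceeded 0.71 of the group's range. This held for 8 of 52 groups looked at (15.4%). Chance gives about 1 in 20 for independent groups, but these genes share the same 10 libraries, so the rates cannot be compared directly. Among NFAT5 KO libraries, 678_5 stood above the others for Socs2 (9.34 CPM, the others 2.06 to 3.40), Stat3 (1628 CPM, the others 927 to 1037), Jak3 (709 CPM, the others 417 to 469) and Il12rb2 (509 CPM, the others 316 to 324). NFAT5 KO 679_2 stood above the others for Nfat5 (26.7 CPM, the others 11.6 to 12.6). Among WT libraries, 678_4 stood above the others for Il2rg (1640 CPM, the others 1197 to 1259) and Ifngr1 (624 CPM, the others 406 to 465), and 679_4 below the others for Tyk2 (74.5 CPM, the others 115 to 129). The cause of these values was not tested.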

How the results depend on the processing

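Members called numbered 2 with the prefix block, 0 in prefix 678, 1 in prefix 679 and 0 with the macrophage covariate (4 in the analysis reported), and 1 to 5 with a library left out. Genes called over the whole table numbered 0, 325 and 23 in prefix 678, prefix 679 and with the macrophage covariate, 1893 with DESeq2, and 696 to 1276 with a library left out. Pathway genes called ran from 8 to 15. The cause of these shifts was not tested; single prefixes hold 5 libraries each. Log2 fold changes that lost their call were Cish in prefix 678 (0.48) and with the macrophage covariate (0.75), Socs1 with library size alone (0.42), the length offset (0.45), the prefix block (0.46), prefix 678 (0.55), prefix 679 (0.37) and the macrophage (0.27) and melanoma (0.41) covariates, Socs3 in prefix 678 (0.53), prefix 679 (0.41) and with the macrophage covariate (0.41), and Stat6 with the prefix block (0.49), in prefix 678 (0.48), prefix 679 (0.50) and with the macrophage covariate (0.41). Those that gained one were Socs2 with limma-voom (-1.36), Stat3 with DESeq2 (0.60), and Stat5a with the stricter filter (0.39), DESeq2 (0.40) and limma-voom (0.39). Signs turned for Stat4 with the macrophage covariate (-0.069), Nfat5 with the length offset (0.068) and in prefix 679 (0.47), Jak3 in prefix 679 (-0.11), with the macrophage covariate (-0.081) and with limma-voom (-0.082), and Tyk2 in prefix 678 (-0.064) and with limma-voom (-0.013); none of these 4 genes was called. With a library left out, estimates ran from 0.38 to 0.53 for Socs1, -1.53 to -0.81 for Socs2, 0.40 to 0.51 for Socs3, 0.40 to 0.70 for Stat3, 0.31 to 0.45 for Stat5a, 0.43 to 0.63 for Stat6, -0.37 to 0.025 for Nfat5, -0.11 to 0.11 for Jak3 and -0.080 to 0.081 for Tyk2. Marker means ran from -0.0063 to 0.41 for dendritic cells, -0.42 to 0.028 for neutrophils and -0.13 to 0.076 for CD4 and regulatory T cells. Over all settings the median of all genes stayed between -0.03 and 0.02. No paired analysis was possible because no replicate number is shared by the genotypes. In the simulation, with changes placed in genes of any spread, edgeR recovered 12 of 100 changes of log2 0.5. Most members varied less within a genotype than the median tested gene, so that rate need not hold for them. A missed threshold does not show that a gene did not differ.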
